A study of Mus musculus with 12 samples.

Results

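The transcripts of 10 amino acid transporters were followed in C2C12 myotubes, a mouse muscle cell line, after treatment with BAM15. The genes were Slc7a11, Slc7a5, Slc3a2, Slc7a1, Slc7a3, Slc38a2, Slc1a4, Slc1a5, Slc6a9 and Slc43a1. They were taken by gene symbol from a table of 15113 genes, and all 10 were found in it. BAM15 is a mitochondrial uncoupler, a small molecule that carries protons across the inner membrane so that respiration runs without a matching yield of ATP. Cells of the first group were exposed to 20 µM BAM15 in DMSO for 16 h and those of the second to the vehicle, with 6 libraries in each (numbered 1 to 6). Cells of both groups had been grown to confluence and differentiated in horse serum, and neither group carried a genetic change. Each library was read from the 3′ ends of polyadenylated transcripts, so that counts were compared between genes without a correction for transcript length. No source used here says whether the 6 libraries came from separate cultures, so the p-values measure the spread between these libraries, which may be technical.

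Cells take up amino acids through carriers that differ in what they move and in what drives them. Some act as exchangers that trade an amino acid inside the cell for another outside, and others draw on the sodium gradient. Several light chains of the SLC7 family reach the cell surface only when bound to a shared heavy chain, the product of Slc3a2, also called CD98 heavy chain or 4F2hc. Many transporter genes are known targets of ATF4, a transcription factor whose translation rises when eIF2α is phosphorylated, as happens when amino acids run short or mitochondria are disturbed. SLC7A5 in muscle is known for bringing in leucine, which acts on the growth kinase complex mTORC1.

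The libraries held between 13983725 and 18866728 reads. A normalized count is a count scaled by the TMM method of edgeR to the mean library size. The summed level of 14 myotube markers overlapped between the groups, at 448029 to 584448 normalized counts after BAM15 and 496603 to 545375 with vehicle. Past the thresholds given below were 0 of the 14 in edgeR, DESeq2 or limma-voom, beside 7.28% of all genes in edgeR. In edgeR 8 had an unadjusted p under 0.05 and 4 an adjusted p under 0.01, beside 42.3% of all genes by the latter. Of these 4, Acta1 (log2 fold change 0.46) and Myog (0.37) were higher after BAM15, and Ckm (−0.17) and Mylpf (−0.23) were lower. Acta1 had the highest level of the 14. Of 7 markers of undifferentiated and cycling myoblasts, 5 fell and 1 (Myf5) rose past the thresholds, beside 3.58% and 3.70% of all genes. Pax7 was also lower (log2 fold change −0.93, adjusted p = 4.93e-06, edgeR), short of the fold threshold. The summed level of the 7 was 2804 to 3542 after BAM15 and 6451 to 7309 with vehicle. Of 4 macrophage markers 2 were in the table (Cd68 and Csf1r), summing to 59.5 to 86.4 after BAM15 and 11.8 to 27.8 with vehicle. Cd68 alone carried that difference (mean 64.2 after BAM15 and 13.7 with vehicle), while Csf1r, too low to be tested, had means of 5.67 and 7.48. Endothelial and adipocyte markers were not analysed here. The part of these other cells in the results below was not tested, and fewer cells of a type cannot be told apart from less RNA per cell in such bulk samples.

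Most of the transporters rose after BAM15. A gene was called past the thresholds when its adjusted p-value was under 0.01, its mean normalized count over the 12 libraries was above 50 and its change was more than 2-fold (quasi-likelihood F-test of edgeR, adjusted by the method of Benjamini and Hochberg over 12730 genes). Of the 10 transporters, 9 entered the test, 7 rose past all 3 thresholds and 0 fell. Among all genes tested, 7.28% were called, 3.70% as higher and 3.58% as lower. The 7 were Slc7a11, Slc6a9, Slc3a2, Slc7a1, Slc1a5, Slc7a5 and Slc1a4, in order of their log2 fold change from largest to smallest. By adjusted p-value alone 8 of the 9 were higher, beside 22.0% of all genes (20.3% were lower, and 42.3% either). The lowest BAM15 library lay above the highest vehicle library in 8 of the 9, beside 17.1% of all genes (34.2% in either direction). A log2 fold change above 2 was reached by 4 of the 7, beside 1.05% of all genes called at that size. The median log2 fold change was 1.89 over the 9 tested, which leaves out Slc7a3, and 0.02 over all genes. These 10 genes were chosen with earlier results of these data known, and Slc7a11 is drawn in the study's heat map of its most changed transcripts, so the count is a description of the family and not independent evidence of its direction.

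**Figure D1:**
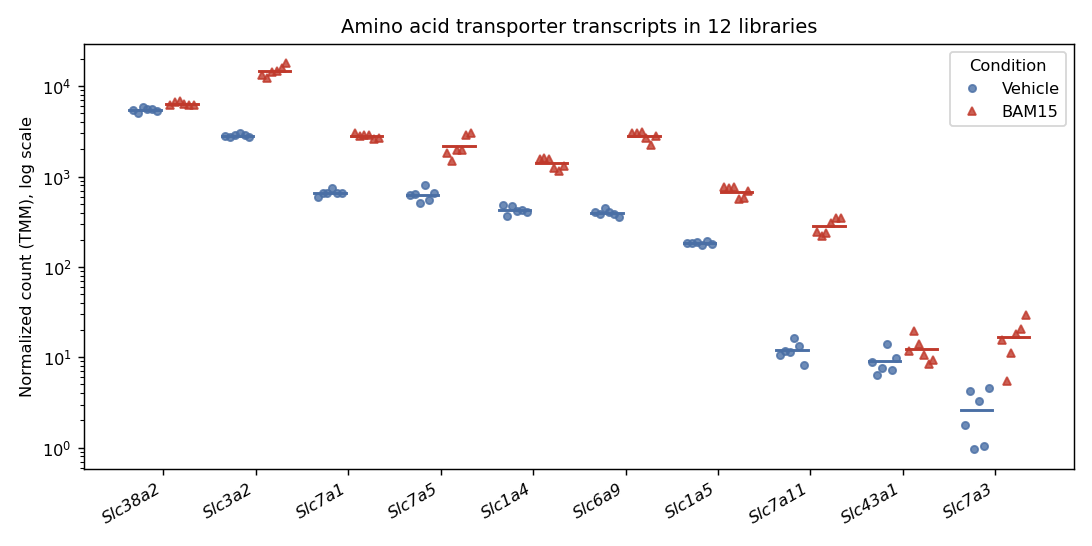
Normalized counts (log scale) of the 10 transporters in each library, ordered by their vehicle median, with circles for vehicle, triangles for BAM15 and a line at each group mean (n = 6). The triangles lie above every circle for 9 genes, and for Slc43a1 the groups overlap.

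Slc3a2, the heavy chain itself, was an abundant transcript in both groups. It lies on chromosome 19 (8706882 to 8723369, minus strand). Its normalized count was between 2712 and 3033 with vehicle (median 2835) and between 12156 and 17908 after BAM15 (median 14560). All 6 BAM15 libraries were far above all 6 vehicle libraries. The log2 fold change was 2.37 (SE 0.08, adjusted p = 5.52e-12, edgeR), or 5.18-fold.

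Slc7a11 encodes xCT, the light chain that imports cystine in exchange for glutamate and so feeds the synthesis of glutathione. The gene lies on chromosome 3 (49892526 to 50443614, minus strand). With vehicle it was low, at 8.13 to 16.2 normalized counts (median 11.6), which rested on 9 to 15 reads a library. After BAM15 it stood at 221 to 349 (median 276), on 205 to 372 reads. No BAM15 library came near the vehicle range, and the log2 fold change of 4.58 (SE 0.18, adjusted p = 2.03e-11, edgeR) was the largest of the 9, at 23.9-fold with a 95% interval of 18.3 to 31.1.

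The promoter of Slc7a11 is shown because it held 2 copies of TGATGNAA, the composite C/EBP-ATF motif to which ATF4 is known to bind, on opposite strands and close together. Promoters, taken from RefSeq (GRCm38.p6), ran from 250 bases before to 50 bases after each start. They were given for 7 of the 10 genes (10 promoters in all), and Slc7a5, Slc7a3 and Slc1a5 had no entry. On either strand the motif was in 2 of the 10 promoters, those of Slc7a11 and Slc1a4, and in 3.97% of all 32851 promoters. The stretches below are the 120 bases before the Slc7a11 start (chr3:50443614-50443733, minus strand) and 44 bases around the Slc1a4 start (chr11:20332710-20332753, minus strand). They run 5′ to 3′ along the gene, and capitals mark the matches.
Slc7a11 promoter: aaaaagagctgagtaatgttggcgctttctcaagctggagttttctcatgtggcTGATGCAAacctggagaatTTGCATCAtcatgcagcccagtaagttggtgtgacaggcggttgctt
Slc1a4 promoter: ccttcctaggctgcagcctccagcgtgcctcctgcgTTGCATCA
The core of the antioxidant response element, TGACNNNGC, was in 5 of the 10 promoters (4 genes) and in 12.4% of all, and had no match in the Slc7a11 window. The E-box CACGTG was in 1, that of Slc43a1, and in 7.15% of all. Such matches describe letters and show no binding.

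Slc7a5 encodes LAT1, which exchanges intracellular glutamine for large neutral amino acids such as leucine, and is the other light chain among the 10. It lies on chromosome 8 (121881150 to 121907694, minus strand). Its normalized count was 510 to 811 with vehicle (median 636) and 1504 to 2994 after BAM15 (median 1977). The groups did not overlap, although the BAM15 libraries spread widely. The log2 fold change was 1.79 (SE 0.17, adjusted p = 1.05e-06, edgeR), or 3.47-fold.

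The cationic carriers CAT-1 and CAT-3, which bring in arginine and lysine and need no heavy chain, are encoded by Slc7a1 (chromosome 5, 148327410 to 148399904, minus strand) and Slc7a3 (chromosome X, 101079210 to 101086020, minus strand). Slc7a1 was at 598 to 749 normalized counts with vehicle (median 653) and at 2593 to 3060 after BAM15 (median 2872). Its change had the smallest SE of the 7, with a log2 fold change of 2.10 (SE 0.06, adjusted p = 9.44e-13, edgeR), or 4.29-fold. Slc7a3 was hardly expressed and was removed by the filter on low counts. It had 1 to 5 reads a library with vehicle and 5 to 25 after BAM15, or 0.956 to 4.52 (median 2.50) against 5.40 to 29.2 (median 16.8) normalized counts, so the groups did not overlap by normalized count. Summed over 6 libraries there were 16 and 97 reads, a ratio of 6.32 after scaling by library size (exact 95% interval 3.70 to 11.5, which covers counting error only). A fit without the filter put Slc7a3 higher by 2.60 on the log2 scale (adjusted p = 1.50e-04 by edgeR), below the threshold on mean count.

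The sodium-coupled carriers of small neutral amino acids split into a large and a small change. Slc1a4 (chromosome 11, 20302180 to 20332713, minus strand) encodes ASCT1, an exchanger of serine, alanine, cysteine and threonine. It went from 369 to 482 normalized counts with vehicle (median 423) to 1159 to 1589 after BAM15 (median 1442), a log2 fold change of 1.71 (SE 0.10, adjusted p = 1.02e-09, edgeR). Slc1a5 (chromosome 7, 16781340 to 16798274, plus strand) encodes ASCT2, which also carries glutamine. It was at 176 to 193 with vehicle (median 183) and at 562 to 758 after BAM15 (median 718), a log2 fold change of 1.89 (SE 0.09, adjusted p = 1.36e-10, edgeR). Both genes stood apart between the groups in every library, by 3.28-fold and 3.70-fold on average.

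Slc38a2 encodes SNAT2, the system A carrier of alanine and glutamine that is known to be induced when amino acids are withdrawn (chromosome 15, 96687392 to 96699730, minus strand). It was the most abundant of the 10 with vehicle, at 4996 to 5845 normalized counts (median 5473), and stood at 6154 to 6860 after BAM15 (median 6271). The libraries did not overlap, yet the log2 fold change was only 0.23 (SE 0.05, adjusted p = 0.00135, edgeR), or 1.18-fold, under the fold threshold. Its adjusted p-value was above 0.01 with scaling by library size alone (0.0101) and over libraries 4 to 6 only (0.0676, both edgeR).

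Slc6a9 encodes GlyT1, which brings in glycine with sodium and chloride (chromosome 4, 117834506 to 117875198, plus strand). It was at 361 to 450 normalized counts with vehicle (median 396) and at 2248 to 3089 after BAM15 (median 2885). Its log2 fold change of 2.81 (SE 0.09, adjusted p = 1.12e-12, edgeR), or 7.03-fold, came next after that of Slc7a11. Exons of B4galt2 and Ccdc24 on the opposite strand cover the last 400 bases of the Slc6a9 transcript, and the strand setting of the counting is not given in the sources used here. B4galt2 itself had a mean of 548 normalized counts with vehicle and 473 after BAM15, a difference of −0.21 on the log2 scale (adjusted p = 0.0157 by edgeR). Ccdc24 was not among the genes tested. Whether reads from the opposite strand entered the Slc6a9 count was not tested. For the other genes of the 10, the transcript examined was not overlapped in its last 400 bases on either strand. It also shared no stretch of 50 bases there with another gene. Other transcript ends of the 10 genes, Slc7a11 included, were not examined.

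Slc43a1 encodes LAT3, a carrier of large neutral amino acids that needs neither sodium nor a heavy chain (chromosome 2, 84838850 to 84863594, plus strand). It was low in both groups, at 6.38 to 14.1 normalized counts with vehicle (median 8.22) and 8.45 to 19.4 after BAM15 (median 11.2). The ranges overlapped, and the log2 fold change of 0.44 (SE 0.27, 95% interval −0.14 to 1.02, adjusted p = 0.185, edgeR) did not pass the test. At this depth a change of up to 2.03-fold lay within its interval.

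The order of the transporters by level changed with treatment. By median normalized count with vehicle, Slc38a2 came first and Slc3a2 second, followed by Slc7a1 and Slc7a5 (whose ranges overlapped), Slc1a4 and Slc6a9 (likewise), Slc1a5, Slc7a11 and Slc43a1 (likewise), and Slc7a3. After BAM15, Slc3a2 was above Slc38a2 without overlap, and Slc6a9, Slc7a1, Slc7a5 and Slc1a4 followed as a run in which each overlapped the next. Slc1a5 and Slc7a11 came below them, each apart from its neighbours, and Slc7a3 and Slc43a1 were last and overlapped.

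The light chains that share the heavy chain did not keep their proportions. Besides Slc7a11 and Slc7a5, 2 other light chain genes were measured, Slc7a6 and Slc7a7, which encode the y+LAT2 and y+LAT1 exchangers of cationic for neutral amino acids (Slc7a8 and Slc7a10 were not analysed here). The log2 fold change was 0.08 for Slc7a6 (SE 0.14, adjusted p = 0.675, edgeR) and −0.35 for Slc7a7 (SE 0.15, adjusted p = 0.0609, edgeR), so neither passed the test. Of the summed reads of the 4 light chain genes, Slc7a11 held 1.38% ± 0.27 (SD, n = 6) with vehicle and 10.7% ± 1.1 after BAM15. The share of Slc7a5 was 72.5% ± 2.61 with vehicle and 80.8% ± 1.89 after BAM15. Slc7a6 held 20.4% ± 2.03 with vehicle and 6.97% ± 0.85 after BAM15, and Slc7a7 5.70% ± 0.86 and then 1.53% ± 0.54. The groups did not overlap for any of the 4 shares, and each had an exact permutation p of 0.00216 (two-sided, adjusted p = 0.00216 over 4 shares), the smallest that 6 against 6 libraries can give. The shares sum to 100 in each library, so they are not 4 separate results.

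**Figure D2:**
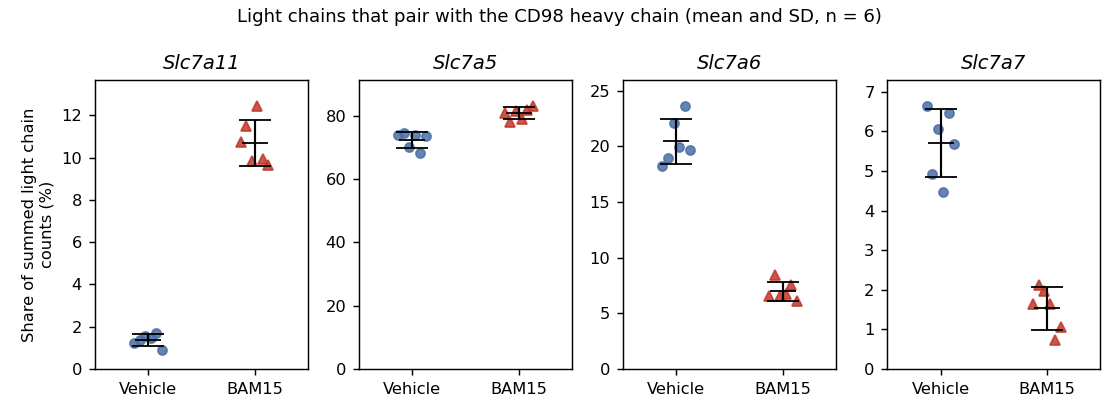
Share of each light chain gene in the summed reads of Slc7a11, Slc7a5, Slc7a6 and Slc7a7 (%), 1 point per library, with circles for vehicle, triangles for BAM15, and mean and SD (n = 6), each panel on its own axis from 0. Slc7a11 moves from about 1.38% to 10.7% and Slc7a6 from 20.4% to 6.97%, with no overlap.

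Ratios to the partner genes were compared as log2 values per library (0.5 added to each count, 7 ratios, exact two-sided permutation tests with Benjamini-Hochberg adjustment). With vehicle there were 234 Slc3a2 reads for each Slc7a11 read and after BAM15 52.1, a log2 difference of 2.17 (adjusted p = 0.00505, exact permutation test). Slc7a5 rose by less than its heavy chain, with 4.54 Slc3a2 reads per Slc7a5 read under vehicle and 6.88 after BAM15, a log2 difference of −0.60 (adjusted p = 0.00606, exact permutation test). For Slc7a6 the difference was −2.31 and for Slc7a11 against Slc7a5 it was 2.76 (both adjusted p = 0.00505, exact permutation test). The ranges of the groups overlapped for Slc7a5 against Slc3a2 and for no other of these 4 ratios.

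The remaining ratios compared carriers of like substrates, and the ranges of the groups overlapped for each of them. Slc38a2 fell relative to Slc38a1, which encodes the related carrier SNAT1, by a log2 difference of −0.76 (adjusted p = 0.00606, exact permutation test). Slc1a4 against Slc1a5 differed by only −0.17 (adjusted p = 0.0303, exact permutation test), and that call was lost when any of 5 libraries was left out: BAM15 5 or 6, or vehicle 1, 3 or 4 (values −0.17 to −0.14, adjusted p = 0.0606 by the exact test in each). Slc7a1 against Slc7a3 differed by −0.38 and did not pass (adjusted p = 0.433, exact permutation test), and the sign turned to 0.63 (adjusted p = 0.0455, exact permutation test) with 5 in place of 0.5 added to each count. Slc7a3 had 1 to 25 reads a library.

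Amino acid transporters outside the 10 showed no common direction. Of 44 such genes listed, 22 were in the table and 20 were tested, and 3 rose past the thresholds while 1 fell. Their median log2 fold change was −0.02, beside 1.89 for the chosen transporters and 0.02 for all genes. By adjusted p-value alone 6 were higher and 4 lower of the 20, not far from the 22.0% and 20.3% of all genes. Slc1a3, which encodes the glutamate carrier GLAST, rose by a log2 fold change of 1.84 (SE 0.17, adjusted p = 3.92e-07, edgeR), from 19.1 to 48.5 normalized counts with vehicle to 110 to 156 after BAM15. Slc38a7, encoding a lysosomal glutamine carrier, rose by 1.25 (SE 0.10, adjusted p = 3.74e-08, edgeR), and Slc38a1 by 1.02 (SE 0.13, adjusted p = 1.70e-05, edgeR). Slc38a1 lay close to the fold threshold, at 2.03-fold with a 95% interval of 1.66 to 2.48, and limma-voom called 3 genes of this list where edgeR called 4. The taurine carrier gene Slc6a6 was the 1 that fell, from 7124 to 10181 normalized counts (median 8134) with vehicle to 1698 to 3273 (median 2124) after BAM15, a log2 fold change of −1.90 (SE 0.17, adjusted p = 5.43e-07, edgeR). With vehicle every library held more Slc6a6 than Slc38a2, and after BAM15 every library held less.

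**Figure D3:**
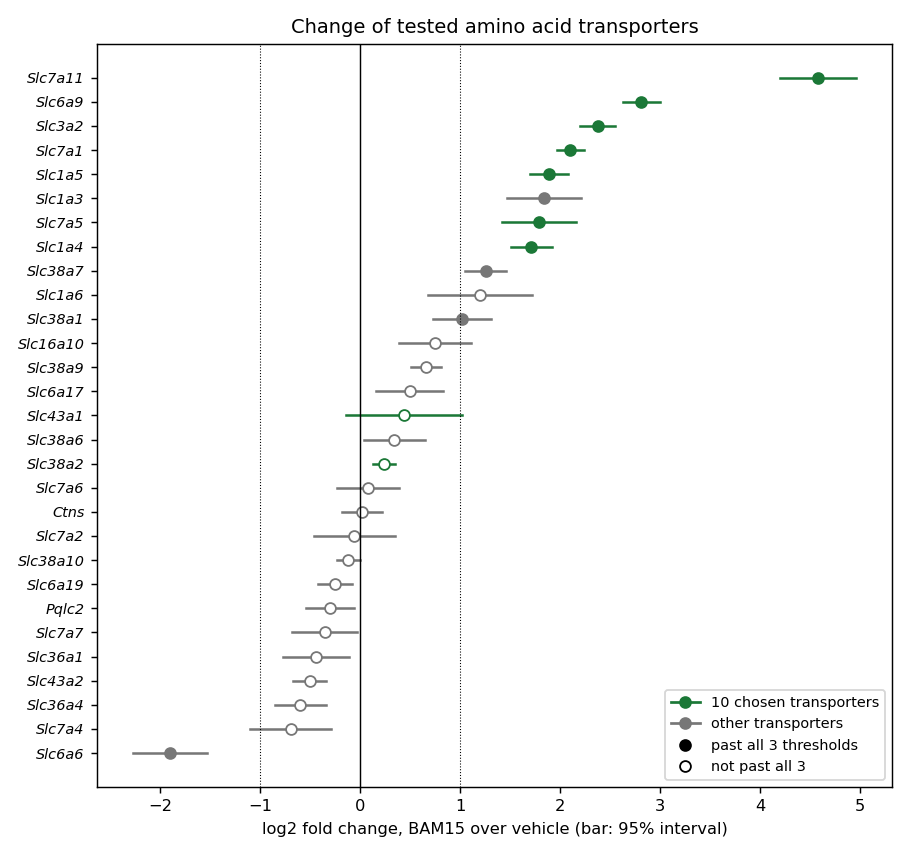
Log2 fold change of BAM15 over vehicle with its 95% interval for the 9 tested transporters of the chosen 10 (green) and 20 other amino acid transporters (grey), with filled points past all 3 thresholds and dotted lines at 2-fold. The 7 filled green points lie between 1.71 and 4.58, and Slc6a6 is the only filled point below 0.

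Genes that are known to control these transporters were read beside them. Of 12 genes of the amino acid response, 8 rose past the thresholds and 0 fell, beside 3.70% and 3.58% of all genes. The study's heat map of its most changed transcripts holds Ddit3, Trib3 and Atf3, so the count is not independent evidence. Besides Atf3, Cebpb and Nupr1 they were Atf4 itself (log2 fold change 2.10, SE 0.10), its partner gene Cebpg (1.35, SE 0.09), Atf5 (1.44, SE 0.10), Ddit3, which encodes the stress factor CHOP (4.31, SE 0.13), and Trib3, a pseudokinase gene downstream of ATF4 (5.65, SE 0.11). The adjusted p-values of these 5 were at most 1.55e-08 (edgeR). The 4 eIF2α kinase genes were not past the thresholds. The gene of GCN2, Eif2ak4, which senses uncharged tRNA, had 0.02 on the log2 scale (adjusted p = 0.918, edgeR), Eif2ak3 (PERK) 0.51 (0.00593), Eif2ak1 (HRI) −0.19 (0.0205) and Eif2ak2 (PKR) −0.47 (0.00163). The activity of a kinase is not read by its transcript.

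NRF2, the factor of the antioxidant response, is also known to drive Slc7a11. Of 10 of its targets 3 rose past the thresholds, Nqo1 (1.19), Hmox1 (2.05) and Srxn1 (1.57), and 8 were higher by adjusted p-value alone, all by less than Slc7a11. Among all genes 3.70% and 22.0% were higher by these rules. MYC is known to drive Slc7a5 and Slc1a5. Of 4 genes of MYC and its partners 0 were past the thresholds by edgeR, DESeq2 or limma-voom, beside 7.28% of all genes in edgeR. A list of 4 genes is too short to be set against such a share. In edgeR 3 had an unadjusted p under 0.05 and 2 an adjusted p under 0.01, beside 42.3% of all genes by the latter. Myc stood 2.45 higher on the log2 scale (SE 0.34, adjusted p = 2.38e-05, edgeR) at a mean of 46.7 normalized counts, under the minimum of 50, and was called when vehicle library 4 or 5 was left out. Of 25 genes that pass amino acid signals to mTORC1, 1 rose and 1 fell, a share near the 7.28% of all genes. They were Sesn2, which encodes a leucine sensor that restrains mTORC1, by 3.06 (SE 0.15, adjusted p = 2.67e-10, edgeR), and Castor2, a relative of an arginine sensor gene, by −1.12 (SE 0.07, adjusted p = 4.61e-09, edgeR).

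The BAM15 libraries differed among themselves by number. The libraries were split by number, 1 to 3 against 4 to 6, a split chosen with earlier results of these data known, and no label says what the numbers mark. Within BAM15, 6 of the 9 tested transporters differed between the numbers at an adjusted p under 0.05 (edgeR), 3 higher and 3 lower in libraries 4 to 6. Of all genes, 38.8% differed (18.6% higher and 20.2% lower), so many genes differed besides these. Slc3a2, Slc7a11 and Slc7a5 were higher in libraries 4 to 6, while Slc1a4, Slc1a5 and Slc6a9 were lower. Of the other amino acid transporters past the thresholds, Slc38a1 was higher there (0.55 on the log2 scale, adjusted p = 7.23e-04, edgeR). So was Slc6a6 (0.64, adjusted p = 0.00674, edgeR). Slc38a7 was lower (−0.37, adjusted p = 0.00388, edgeR), and Slc1a3 did not pass (adjusted p = 0.664, edgeR).

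Slc7a11 was at 221 to 242 normalized counts in BAM15 libraries 1 to 3 and at 310 to 349 in 4 to 6, a log2 difference of 0.52 (SE 0.12, adjusted p = 0.00284, edgeR). Slc3a2 was at 12156 to 14381 and then 14738 to 17908 (0.28, SE 0.08, adjusted p = 0.00700, edgeR). Neither gene overlapped between the numbers. Slc7a5, at 1504 to 1982 and 1973 to 2994, had a difference of 0.56 (SE 0.18, adjusted p = 0.0319, edgeR), with overlap. That of Slc7a5 was lost on leaving out BAM15 library 1, 2, 5 or 6, and that of Slc3a2 without library 2.

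Slc1a4 was at 1567 to 1589 in BAM15 libraries 1 to 3 and at 1159 to 1317 in 4 to 6, a log2 difference of −0.34 (SE 0.09, adjusted p = 0.00459, edgeR). Slc1a5 went from 748 to 758 in the first set to 562 to 689 in the second (−0.30, SE 0.09, adjusted p = 0.01, edgeR). Slc6a9 was at 2995 to 3089 and 2248 to 2775 (−0.26, SE 0.08, adjusted p = 0.0147, edgeR). None of the 3 overlapped, and the differences of Slc1a5 and Slc6a9 were lost with scaling by library size alone, as was that of Slc6a9 without BAM15 library 5. Atf4 was also lower in libraries 4 to 6 (−0.43, SE 0.07, adjusted p = 2.56e-04, edgeR), as were Ddit3 (−0.47, SE 0.08, adjusted p = 3.79e-04), Atf5 (−0.44, SE 0.07, adjusted p = 2.86e-04) and Trib3 (−0.25, SE 0.08, adjusted p = 0.0260). Cebpg went the other way and was higher there (0.26, SE 0.09, adjusted p = 0.0381, edgeR), and the other 7 genes of the amino acid response did not pass. Slc7a1, Slc38a2 and Slc43a1 did not pass this test.

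**Figure D4:**
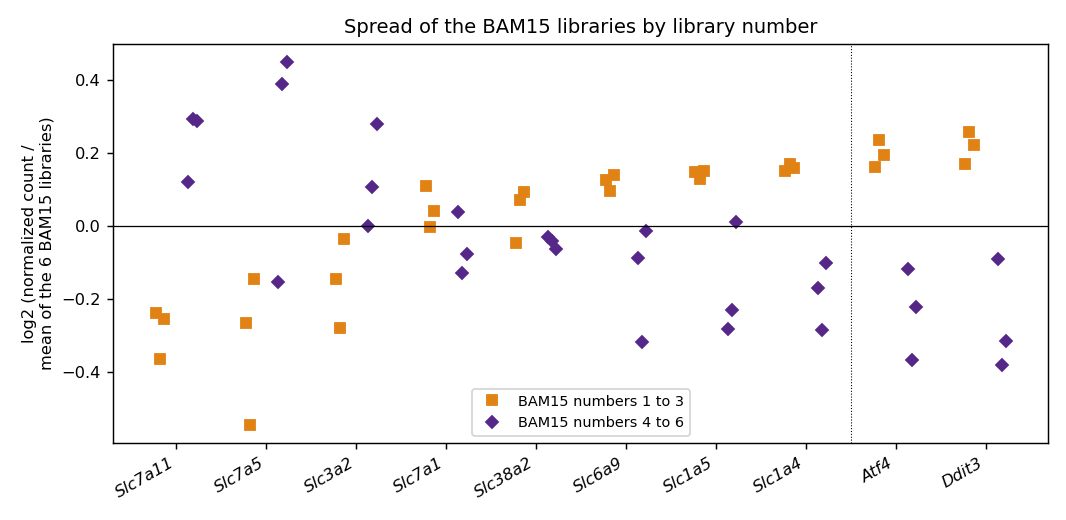
Log2 of the normalized count over the mean of the 6 BAM15 libraries for 8 transporters, Atf4 and Ddit3, with squares for libraries 1 to 3 and diamonds for 4 to 6. The diamonds lie above the squares for Slc7a11 and Slc3a2 and below them for Slc6a9, Slc1a5, Slc1a4, Atf4 and Ddit3.

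With vehicle the same split gave 0 of the 9 transporters at an adjusted p under 0.05 (edgeR, and 0 by DESeq2), and 0 at an unadjusted p under 0.05. The 6 that differed within BAM15 had the same sign with vehicle, from −0.12 for Slc6a9 to 0.17 for Slc7a5 on the log2 scale. Of all genes 0% differed by adjusted p-value, and 5.46% at an unadjusted p under 0.05. The difference of the BAM15 effect between the numbers, tested as an interaction, was past the same threshold for 0 of the 9 (2 at an unadjusted p under 0.05) and for 2.66% of all genes (2.14% higher and 0.518% lower in libraries 4 to 6), so the effect was not shown to differ between the numbers for any of them. Slc3a2 alone passed it when BAM15 library 4 was left out (0.30, adjusted p = 0.0414, edgeR). The same number of transporters, 7, was past the thresholds within libraries 1 to 3 and within 4 to 6. In a joint fit over the 4 sets of libraries, the log2 fold change of Slc7a11 was 4.37 over numbers 1 to 3 and 4.75 over 4 to 6. It was 2.25 and 2.48 for Slc3a2, 1.83 and 1.57 for Slc1a4, and 2.88 and 2.74 for Slc6a9. Slc43a1 had 0.95 and −0.13, whose difference did not pass (adjusted p = 0.217, edgeR).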

How the data were processed

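RNA of 12 C2C12 libraries (6 BAM15, 6 vehicle, grouped by their labels) was read with QuantSeq 3′ mRNA libraries. The authors deposited raw counts per Ensembl gene, and a signal table of the same counts divided by DESeq2 1.22.2 size factors (0.836 to 1.07), from which gene symbols were taken. Reads of 50 bp per the labels were aligned with BlueBee software, and the submitters' processing notes name GRCm38 and mm10. The aligner and its strand setting are not given in the sources used here. The tables also hold 11 columns of other samples, which were not used. Symbols missing from the deposited table were filled from GENCODE M21, which also gave the positions (GRCm38).

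Raw counts were scaled by TMM (factors 0.932 to 1.04), filtered with filterByExpr by group (2383 genes removed, 12730 kept) and tested with edgeR 4.0.16 (robust quasi-likelihood fit, Benjamini-Hochberg adjustment) in R 4.3.3. DESeq2 1.42.0 and limma 3.58.1 (voom) were alternatives, besides other scalings, filters and thresholds, a block for the library number, and leaving out each library. The tests were checked on simulated data. Exact permutation tests used scipy 1.17.1. No pair of libraries agreed within sampling noise (chi-square per gene at least 4.75). The transporters, the other gene lists and the split by number were chosen with earlier results of these data known. All 10 transporters were named, as were the other transporters and the NRF2 and mTORC1 genes past the thresholds, the light chains, Myc, the eIF2α kinases and 5 ATF4-pathway genes (Atf4, Ddit3, Trib3, Atf5, Cebpg). Atf3, Cebpb, Nupr1 and the cell type markers were named after their values were seen. The correlation of deviations between same-numbered libraries was above 0.1 for 4 of 6 numbers (range −0.09 to 0.52), short of the requirement that all 6 be above it, so no pairing was used.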

Additional observations from a re-analysis of the deposited data

How the results depend on the processing

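Of 247 alternatives to the main counts, 233 stayed within 1.5 times. With a log2 fold change above 2 as the threshold, 189 genes in all were called, with 4 of the 10 transporters (1.05% of all genes were called higher), 0 other transporters, 5 amino acid response genes, 1 NRF2 target and 1 gene of the mTORC1 list. By adjusted p-value alone the counts were 5379 genes, 10 other transporters, 8 NRF2 targets, 2 of the MYC list and 7 of the mTORC1 list. Leaving out 1 library at a time gave 0 to 1 for the MYC list and 0 to 1 transporters for the difference of effects between library numbers. With at least 10 counts required in every library, 6 transporters were called, since Slc7a11 was then removed. Adding 5 reads reversed Slc7a1 against Slc7a3 to 0.63. The library numbers did not pair the libraries number by number (not every BAM15 library correlated best with the vehicle library of its own number). BAM15 libraries 1, 2 and 3 each correlated best with vehicle library 3, and 4, 5 and 6 with vehicle library 6. Each best match thus lay in the same set of numbers, 1 to 3 or 4 to 6, and what this reflects was not tested. With a replicate block 933 genes and 7 transporters were called, and the ratio of Slc1a4 to Slc1a5 no longer passed (adjusted p = 0.0729, exact sign-flip test). Slc7a10 could not be added to the light chains, as it was not analysed here, and ratios over 3 against 3 libraries had no test that could pass (smallest exact p 0.10). Depth limits Slc7a3 and Slc43a1, and Slc7a11 with vehicle.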
